A study of Mus musculus with 6 samples.

Results

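The genes described here are 6 matrix metalloproteinases (Mmp2, Mmp3, Mmp9, Mmp12, Mmp13 and Mmp14) and the 4 tissue inhibitors of metalloproteinases (Timp1, Timp2, Timp3 and Timp4), measured in brown adipose tissue (BAT). They were chosen by gene symbol, with earlier results of these data known, and all 10 had a row of their own among the 23282 rows of the count data. BAT was taken from male C57BL/6N mice at 5 weeks of age, 3 wild type (WT) and 3 Letmd1 knockout (KO), and its RNA was measured with QuantSeq libraries, in which reads start near the poly(A) tail of an mRNA. The KO mice carried a knockout-first allele in every tissue, with a lacZ and neomycin resistance cassette in an intron of Letmd1, a gene for a protein of the mitochondrial matrix. The line was derived from 1 embryonic stem cell clone, and the allele was present in all cell types of the tissue.

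Matrix metalloproteinases are zinc-dependent enzymes that cut collagens, elastin, proteoglycans and other proteins of the extracellular matrix. Most are secreted as inactive proenzymes and become active once the propeptide is removed, while a few, such as MMP14, are anchored in the plasma membrane. The TIMP proteins bind the active site of these enzymes and block it, and in adipose tissue the balance of both families is known to take part in matrix remodelling as the tissue grows or is inflamed.

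Each mouse had between 6669577 and 14574273 counts, and a floor of 3 counts corresponded to between 0.176 and 0.397 CPM. CPM here are counts brought to equal library size by edgeR's TMM method, with factors between 0.852 and 0.886 in WT and between 1.13 and 1.17 in KO mice. Letmd1 had 5658, 6490 and 5266 counts in the WT mice and 0, 0 and 1 in the KO mice, so the genotype labels of all 6 matched. Brown adipocyte markers were present in every mouse, with Ucp1, the uncoupling protein of thermogenic fat, between 5841 and 6874 CPM in WT and between 255 and 476 CPM in KO mice. Markers of skeletal muscle summed to 2.91, 316 and 2.61 CPM in WT mice 1, 2 and 3 and to between 247 and 968 CPM in KO mice, so that WT mouse 2 stood apart from the other WT mice.

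Of the 10 genes, 9 passed edgeR's filter on low counts and Mmp13 did not. In KO BAT 8 of the 9 were higher at an adjusted p under 0.05 and 0 were lower, and Timp4 did not pass the threshold. Over all 12995 genes tested, 46.0% passed the threshold, 23.7% as higher and 22.3% as lower. The values of the 2 genotypes did not overlap for 7 of the 9 genes, compared with 57.3% of all genes tested. The median log2 fold change of the 9 genes was 1.70, beside 0.03 for all genes tested. Because these are whole pieces of tissue, more cells of a type and more RNA per cell cannot be told apart in any of these values.

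**Figure D1:**
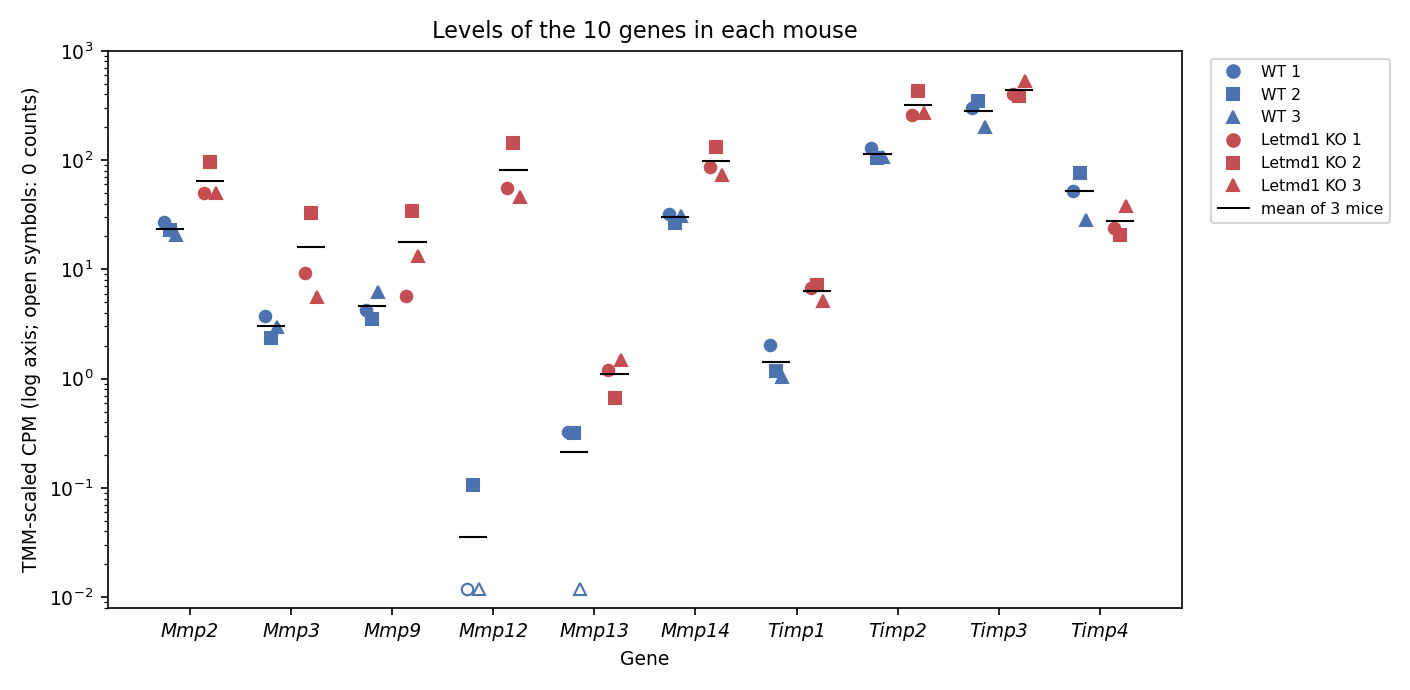
Level of each of the 10 genes in each of the 6 mice, as TMM-scaled CPM on a log axis, with blue symbols for WT, red symbols for Letmd1 KO, 1 symbol shape per replicate number, open symbols for 0 counts and a line at the mean of 3 mice. Mmp12 has 0, 0.106 and 0 CPM in WT mice and between 45.7 and 142 CPM in KO mice, whereas Mmp9 and Timp4 overlap between the genotypes.

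Mmp12 encodes macrophage elastase, a secreted protease that cuts elastin and is best known from macrophages. In GENCODE vM21, on the mm10 build that the sample records name, it lies on the plus strand at chr9:7344381-7369499. It had 0, 1 and 0 counts in the WT mice, all under the floor, and 506, 1076 and 777 counts in the KO mice. On the CPM scale the KO mice had 55.6, 142 and 45.7. No KO mouse came near a WT mouse. The pooled KO level was 1849 times the pooled WT level (95% exact interval 331 to 73050, counting error only), a ratio that rests on a single WT count. The edgeR log2 fold change was 10.65 (SE 0.83, edgeR adjusted p = 1.85e-05), and it depends on the prior count and on WT mouse 2, which held the single WT count (12.67 without this mouse, 9.99 without KO mouse 2). Mmp1b overlaps Mmp12 on the opposite strand by 157 exonic bases and had 0 counts in every mouse.

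Mmp3 and Mmp13 lie in the same cluster on chromosome 9, where 9 Mmp genes sit between positions 7272514 and 7699585. Mmp3 encodes stromelysin-1, which cuts proteoglycans, fibronectin and basement membrane proteins and can activate other proMMPs, and it lies on the plus strand at chr9:7445822-7455975. It was at 3.77, 2.33 and 3 CPM in WT mice and at 9.23, 33.1 and 5.53 CPM in KO mice. The lowest KO mouse was above the highest WT mouse, and KO mouse 2 was well above the other KO mice. On the log2 scale the difference was 2.36 (SE 0.63, edgeR adjusted p = 0.013), and it was 1.26 without KO mouse 2.

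Mmp13 encodes collagenase-3, the main interstitial collagenase of the mouse, and lies on the plus strand at chr9:7272514-7283331. It had 3, 3 and 0 counts in WT mice and 11, 5 and 25 in KO mice. All WT values were at or under the floor and all KO values were above it, although in KO mouse 2 by 2 counts only. The pooled KO level was 5.36 times the pooled WT level (95% exact interval 2.26 to 15.4, counting error only). With no filter, where 17694 genes were tested, its log2 fold change was 2.28 (edgeR adjusted p = 0.0546) and did not pass the threshold. When KO mouse 2 was left out it passed the filter and the threshold (2.53, edgeR adjusted p = 0.0333), and without any single WT mouse it passed the filter only (1.80 to 2.65, edgeR adjusted p = 0.054 to 0.0659). Of the other 6 genes of the cluster, Mmp1b, Mmp7 and Mmp10 had 0 counts in all 6 mice, and Mmp8, Mmp20 and Mmp27 had at most 12 counts in any mouse. Of the 9 genes of the cluster, Mmp12 and Mmp3 alone reached more than 25 counts in any mouse, and Mmp12 did so in KO mice only.

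The sequences before the start sites of Mmp3, Mmp12 and Mmp13 are shown because they share features that the choice of genes did not use. The windows of the other genes of the cluster were not looked at on their own. Whether the features go with the expressed genes of the cluster was therefore not tested. RefSeq promoter windows on GRCm38.p6, of 250 bases before and 50 bases after the start, were at hand for 8 of the 10 genes (9 windows, as Mmp12 has 2 starts). The 100 bases before the start are printed for the 3 cluster genes, and for Mmp14 and Timp1 for contrast, 5′ to 3′ along the plus strand, on which all 5 genes lie. Capitals mark matches to the AP-1 motif TGANTCA, the TATA motif TATAAA and the GC box GGGCGG, searched on both strands, so that a GC box on the other strand reads CCGCCC.
Mmp13, chr9:7272414-7272513: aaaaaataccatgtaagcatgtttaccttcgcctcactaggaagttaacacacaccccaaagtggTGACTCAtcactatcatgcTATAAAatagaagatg
Mmp12, chr9:7347274-7347373: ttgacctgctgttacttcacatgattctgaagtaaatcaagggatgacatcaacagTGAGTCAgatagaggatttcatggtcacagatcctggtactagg
Mmp3, chr9:7445722-7445821: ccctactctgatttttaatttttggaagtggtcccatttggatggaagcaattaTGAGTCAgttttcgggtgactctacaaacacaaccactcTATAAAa
Mmp14, chr14:54431498-54431597: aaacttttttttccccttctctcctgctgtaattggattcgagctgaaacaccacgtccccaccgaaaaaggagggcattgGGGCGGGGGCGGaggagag
Timp1, chrX:20870066-20870165: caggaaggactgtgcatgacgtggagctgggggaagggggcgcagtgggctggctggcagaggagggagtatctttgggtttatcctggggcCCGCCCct

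The AP-1 motif was found in the windows of Mmp3, Mmp12 and Mmp13 and in no other window of the 8 genes. It began 46, 44 and 35 bases before the start in Mmp3, Mmp12 and Mmp13, in each case on the strand of the gene. Of all 32851 promoter windows of this length, 7.81% held it. TATAAA was found in the same 3 genes (13.6% of all windows), in Mmp12 beginning at base 5 after the start. The GC box was found in Mmp14, Timp1, Timp2 and Timp3 (35.7% of all windows), CCAAT in Mmp14, Timp1 and Timp2 (37.4%), and CAGGAAGT, an ETS-type motif, in Timp1 and Timp4 (3.33%). For Mmp12 the match lay before the downstream start, and the window of the upstream start held none of the 5 motifs. The motifs were picked after matches had been seen, and a match describes letters in a window and not binding.

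AP-1 dimers are built from Fos and Jun family proteins, and their genes were looked at beside these matches. Of the 5 tested AP-1 genes, 4 were higher in KO BAT and 0 were lower, with a median log2 fold change of 1.09. Fos was at 0.216, 0.53 and 1.04 CPM in WT mice and at 2.75, 9.13 and 3.59 CPM in KO mice, with a log2 fold change of 3.1 (SE 0.65, edgeR adjusted p = 0.004). Fosl2, Jund and Jun had log2 fold changes of 2.13, 1.09 and 0.84, and Junb, at 18.1, 18.9 and 11.2 CPM in WT and 11.0, 15 and 20.6 CPM in KO mice, overlapped between the genotypes. Whether these subunits act on the Mmp genes was not tested.

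Mmp14 and Mmp2 were the most abundant of the 6 metalloproteinases in WT BAT. Mmp14 encodes a membrane-anchored collagenase that also activates proMMP2, and lies on the plus strand at chr14:54431612-54445364. It was at 32.0, 26.4 and 31.0 CPM in WT mice and at 86.2, 132 and 73.6 CPM in KO mice. The genotypes were far apart, and the log2 fold change of 1.70 had the smallest standard error among the proteases (SE 0.21, edgeR adjusted p = 0.000211).

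Mmp2 encodes gelatinase A, which degrades denatured collagen and type IV collagen, and lies on the plus strand at chr8:92827291-92853420. It was at 27.2, 22.8 and 20.5 CPM in WT mice and at 49.5, 95.2 and 49.7 CPM in KO mice. KO mice 1 and 3 were nearly equal, KO mouse 2 was the highest, and none overlapped the WT mice. The log2 fold change was 1.46 (SE 0.26, edgeR adjusted p = 0.00163).

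Mmp9 encodes gelatinase B, found in neutrophils, macrophages and osteoclasts, and lies on the plus strand at chr2:164940780-164955850. It was at 4.2, 3.5 and 6.26 CPM in WT mice and at 5.71, 34.0 and 13.2 CPM in KO mice. KO mouse 1 fell within the WT range, so the genotypes overlapped. Its log2 fold change was 1.91 (SE 0.57, edgeR adjusted p = 0.0208). The call was lost without KO mouse 2 (log2 fold change 1.05, edgeR adjusted p = 0.061), without WT mouse 1 (1.84, 0.0663) and without WT mouse 2 (1.72, 0.070). Under quantile normalization with limma it was lost as well (1.26, limma adjusted p = 0.0951).

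Neutrophil markers were set beside Mmp9 because neutrophils store its protein. Of the 11 markers 10 had a row and 4 were tested, and Lcn2 alone among these passed the threshold. The list summed to between 2.65 and 51.6 CPM in WT mice and between 36.1 and 76.5 CPM in KO mice. Elane had 0 counts in all WT mice and 0, 6 and 0 counts in the KO mice. Lcn2 made up much of the KO sums: without it, a choice made after the values were seen, the other 9 genes summed to 14.3, 1.70 and 50.1 CPM in WT mice and to 14.2, 52.3 and 1.35 CPM in KO mice, which overlapped. S100a8, which is abundant in neutrophils, was at 4.96, 0.53 and 20.5 CPM in WT mice and at 5.27, 19.5 and 0.647 CPM in KO mice. WT mouse 3 and KO mouse 2, which had the highest S100a8 of their genotypes, also had the highest Mmp9. WT mice 1 and 2 were in the same order for both genes, and KO mice 1 and 3 were in the reverse order. KO mouse 3, with the lowest S100a8 of the KO mice, had Mmp9 at 13.2 CPM, above the 5.71 CPM of KO mouse 1. Whether neutrophils had a part in the Mmp9 values was not tested.

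Of the inhibitors, Timp2 binds both MMP14 and proMMP2 and so takes part in the activation of proMMP2 as well as in its inhibition. It lies on the minus strand at chr11:118301069-118355740. Timp2 was at 129, 105 and 106 CPM in WT mice and at 260, 426 and 272 CPM in KO mice, with KO mouse 2 the highest and no overlap. Its log2 fold change was 1.49 (SE 0.19, edgeR adjusted p = 0.000276).

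Timp1, an inhibitor that is inducible by growth factors and cytokines and binds proMMP9, lies on the plus strand at chrX:20870166-20874735. It had 19, 11 and 8 counts in WT mice and 61, 54 and 88 in KO mice, or 2.05, 1.17 and 1.04 CPM and 6.70, 7.15 and 5.18 CPM. The 3 KO mice were close together and above all WT mice. The log2 fold change was 2.13 (SE 0.36, edgeR adjusted p = 0.00115), the largest among the inhibitors on the scale of differences, although Timp1 had the lowest CPM level of the 4 in either genotype.

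Timp3 differs from the other inhibitors in binding to the extracellular matrix and in blocking several ADAM and ADAMTS proteases. It lies on the plus strand at chr10:86300372-86349506. It was at 302, 348 and 200 CPM in WT mice and at 406, 388 and 526 CPM in KO mice, and the lowest KO mouse was above the highest WT mouse by a narrow margin. The log2 fold change was 0.63 (SE 0.20, edgeR adjusted p = 0.0288), the smallest of the 8 that passed. The call was lost without WT mouse 1 (0.68, edgeR adjusted p = 0.056), WT mouse 3 (0.43, 0.0636), KO mouse 1 (0.69, 0.0554) or KO mouse 3 (0.49, 0.102).

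Timp4 is an inhibitor with a narrow tissue distribution that includes heart and adipose tissue, and lies on the minus strand at chr6:115241892-115252205. It was at 52.5, 76.2 and 28.2 CPM in WT mice and at 24.1, 20.8 and 37.6 CPM in KO mice. WT mouse 3 was below KO mouse 3, so the genotypes overlapped. The log2 fold change was -0.92 (SE 0.34, edgeR adjusted p = 0.0502), just outside the threshold. It passed as lower without WT mouse 3 (-1.22, edgeR adjusted p = 0.0044), without KO mouse 3 (-1.22, 0.0302), with no filter (-0.92, 0.0233) and with DESeq2 (-0.94, DESeq2 adjusted p = 0.0103). In every alternative run its value was below 0.

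**Figure D2:**
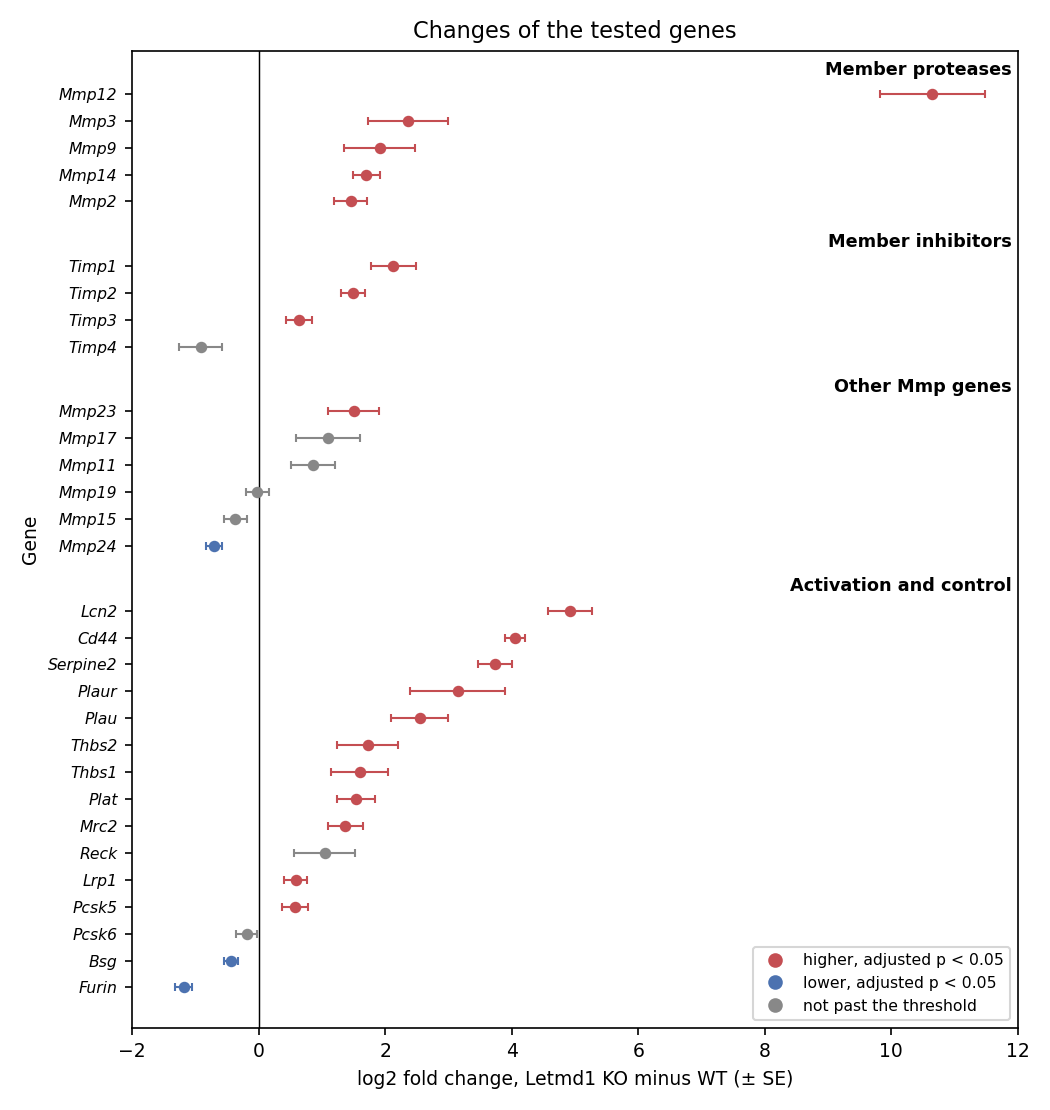
Log2 fold change (Letmd1 KO minus WT, with its standard error) of the tested genes among the 10, the other Mmp genes and all but 1 of the genes of protease activation and control, red where higher and blue where lower at an adjusted p under 0.05 and grey otherwise. Timp4 stands at -0.92 among inhibitors between 0.63 and 2.13, and Mmp12 at 10.65 lies apart from the other 4 tested proteases of the 10 genes, between 1.46 and 2.36.

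All 4 Timp genes overlap another gene in the annotation. Timp1, Timp3 and Timp4 each lie inside a synapsin gene on the opposite strand (Syn1, Syn3 and Syn2), sharing 0, 1733 and 90 exonic bases with it, and Timp2 overlaps Cep295nl on the same strand with 0 shared exonic bases. Whether the counting used strand is not given in the sources used here, so reads of such a pair could not be told apart where exons are shared. Syn2 was at 11.1, 13.4 and 10 CPM in WT mice and at 4.29, 4.10 and 3.41 CPM in KO mice, with a log2 fold change of -1.56 (SE 0.23, edgeR adjusted p = 0.000571). Syn1 and Syn3 were between 2.12 and 5.65 CPM in all mice and did not pass the threshold, which is far below the CPM level of Timp3 and in the range of that of Timp1.

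The levels of the 10 genes can be set in order because a QuantSeq count does not scale with gene length. By mean CPM the order in WT BAT was Timp3 (284 ± 75.6, SD, n = 3), Timp2 (113 ± 13.6), Timp4 (52.3 ± 24.0), Mmp14 (29.8 ± 3), Mmp2 (23.5 ± 3.40), Mmp9 (4.65 ± 1.43), Mmp3 (3.03 ± 0.721), Timp1 (1.42 ± 0.548), Mmp13 and Mmp12. Among these neighbours Timp4 and Mmp14, Mmp14 and Mmp2, Mmp9 and Mmp3, and Mmp13 and Mmp12 overlapped between mice. In KO BAT the order was Timp3 (440 ± 74.8), Timp2 (319 ± 92.8), Mmp14 (97.2 ± 30.6), Mmp12 (81.2 ± 53.2), Mmp2 (64.8 ± 26.3), Timp4 (27.5 ± 8.94), Mmp9 (17.6 ± 14.7), Mmp3 (15.9 ± 15), Timp1 (6.34 ± 1.03) and Mmp13 (1.11 ± 0.413). Mmp12 moved from the last place in WT to the 4th of 10, where it could not be ordered against Mmp14 or Mmp2 beyond their spread. Timp3 and Timp2, which did not overlap in WT mice, overlapped in KO mice. Timp4 and Mmp9, Mmp9 and Mmp3, and Mmp3 and Timp1 also overlapped between KO mice, so this part of the KO order is not resolved.

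The 6 proteases summed to 67.5, 55.4 and 60.8 CPM in WT mice and to 207, 437 and 189 CPM in KO mice. The 4 inhibitors summed to 485, 531 and 335 CPM in WT mice and to 697, 842 and 840 CPM in KO mice. Transcripts of the 4 inhibitors were therefore more abundant than those of the 6 proteases in every mouse. The ratio of the protease sum to the inhibitor sum was 0.139, 0.104 and 0.181 in WT mice and 0.298, 0.519 and 0.225 in KO mice, without overlap and with a log2 difference of 1.24. Without Mmp12, a choice made after the values were seen, the ratio was between 0.104 and 0.181 in WT mice and between 0.171 and 0.350 in KO mice. On this measure the genotypes overlapped. Both ratios leave out the 17 other Mmp genes, which summed to between 123 and 125 CPM in WT and between 100 and 141 CPM in KO mice. In WT mice these other genes held more CPM than the 6 proteases, so the ratios do not describe the whole Mmp family.

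Mmp12 made up 0.0637% ± 0.110 of the protease sum in WT mice and 27.9% ± 4.30 in KO mice (SD, n = 3 each). The shares of Mmp14 and Mmp2 were 48.7% ± 2.05 and 38.4% ± 4.06 in WT mice and 36.9% ± 5.96 and 24.0% ± 2.26 in KO mice, although both genes were higher in CPM. Among the inhibitors, Timp4 made up 11.2% ± 3 of the sum in WT mice and 3.47% ± 1.0 in KO mice, and Timp2 made up 26.0% ± 5.88 and 40.1% ± 9.44. By mean, Timp3 was the largest part in both genotypes, with 62.5% ± 2.94 in WT mice and 55.6% ± 8.55 in KO mice.

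**Figure D3:**
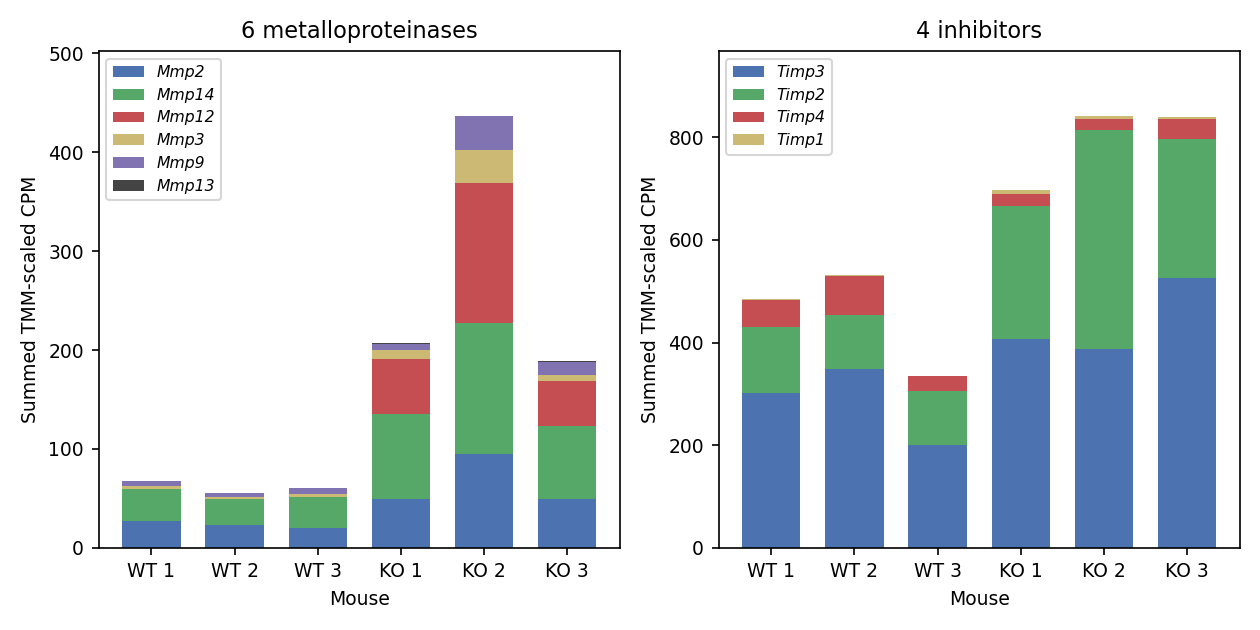
Summed TMM-scaled CPM of the 6 metalloproteinases (left) and the 4 inhibitors (right) in each mouse, as stacked bars with 1 colour per gene. Mmp12 forms a visible part of the bars of the KO mice only, and the protease sum of KO mouse 2 (437 CPM) is the highest of the 6.

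Ratios were also taken within enzyme and inhibitor pairs that bind each other. The ratio of Mmp14 to Timp2 was 0.248, 0.251 and 0.293 in WT mice and 0.331, 0.309 and 0.271 in KO mice, which overlapped. Mmp2 to Timp2 was 0.211, 0.217 and 0.194 in WT mice and 0.190, 0.223 and 0.183 in KO mice, with a log2 difference of -0.06. Mmp14, Mmp2 and Timp2 were all higher in KO BAT, at log2 fold changes of 1.70, 1.46 and 1.49. Mmp9 to Timp1 spread from 2.05 to 6.00 in WT mice and from 0.852 to 4.76 in KO mice, and the genotypes overlapped.

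The KO mice were not alike. The CPM level of KO mouse 2 was 4.48 times the mean of the other KO mice for Mmp3, 3.60 times for Mmp9, 2.81 times for Mmp12, 1.92 times for Mmp2, 1.65 times for Mmp14 and 1.60 times for Timp2. It was 1.20 times for Timp1, and for Timp3, Timp4 and Mmp13 KO mouse 2 was the lowest of the 3. Some genes of lipid-laden macrophages differed in the same mouse, but not all to a like degree. Gpnmb, a lysosomal glycoprotein of such cells, was at 63.1, 1014 and 41.0 CPM in the KO mice, and Trem2, a lipid receptor of macrophages, was at 12.2, 50 and 7.06 CPM. Of the same list of 9 markers, Lgals3 was at 591, 787 and 309 CPM and Lpl at 7453, 7797 and 7612 CPM. Dcstamp, at 7.47, 3.97 and 4.82 CPM, was the only marker of the list that was lowest in KO mouse 2. Whether the macrophage content of KO mouse 2 had a part in its protease levels was not tested.

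**Figure D4:**
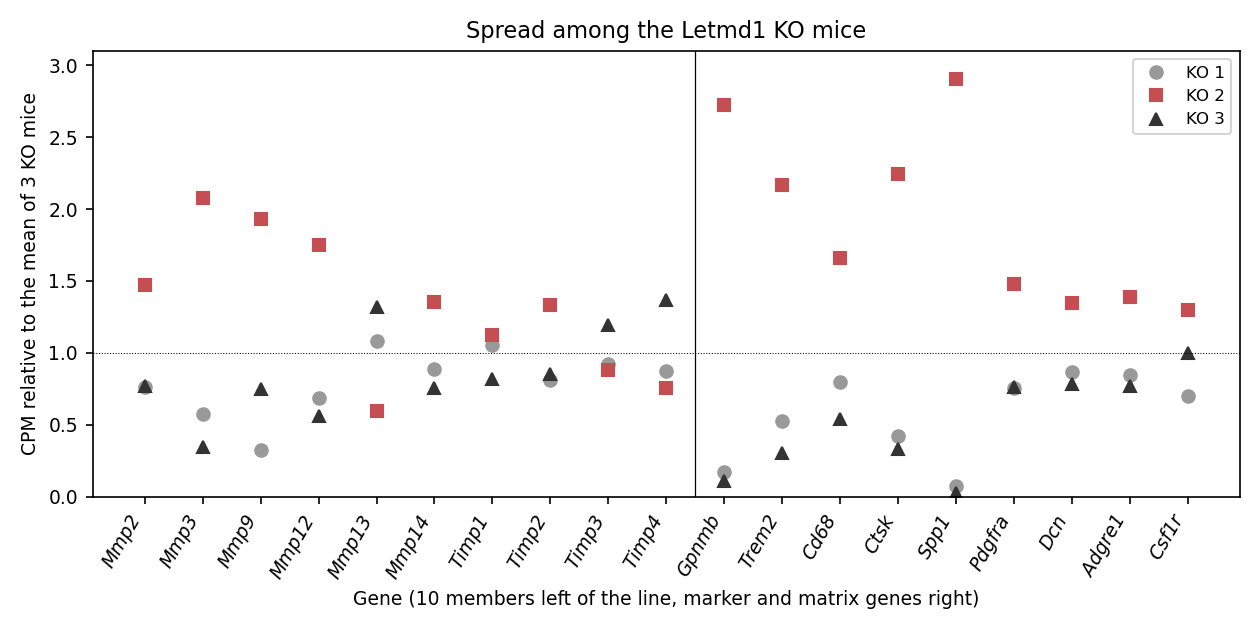
CPM of each KO mouse relative to the mean of the 3 KO mice, for the 10 genes (left of the line) and 9 macrophage, fibroblast and matrix genes (right), with 1 symbol per mouse and a dotted line at 1. KO mouse 2 is highest for 7 of the 10 genes, up to 2.07 for Mmp3, and for all 9 genes on the right, up to 2.90 for Spp1. The 9 genes are a selection from longer lists. Other genes of these lists, such as Mfap5 (66.9, 56.0 and 81.7 CPM in the KO mice) and Dcstamp (7.47, 3.97 and 4.82 CPM), are not plotted and were lowest in KO mouse 2.

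All 12 macrophage markers were higher in KO BAT, with a median log2 fold change of 2.76, and their sum was between 195 and 279 CPM in WT and between 1302 and 2255 CPM in KO mice. Cd68, a lysosomal protein of macrophages, had a log2 fold change of 3.96 and Adgre1, which encodes F4/80, one of 2.86. Of the 9 markers of lipid-associated macrophages 7 were higher and 0 were lower, with a median of 6.05 that was 4.19 without KO mouse 2. All 9 summed to between 5025 and 8120 CPM in WT and between 8066 and 10096 CPM in KO mice, and the genotypes overlapped. Lpl and Acp5, which WT BAT expressed at 157 CPM or more, did not pass the threshold, with log2 fold changes of 0.26 and -1.03. Without Lpl and Acp5, left out after their values were seen, the other 7 summed to between 19.0 and 29.4 CPM in WT and between 407 and 2123 CPM in KO mice. Dcstamp, a fusion receptor of macrophages and osteoclasts, was at 0 in all WT mice. The macrophage sum and the sum of the other 7 markers did not overlap between the genotypes, and neither did Mmp12 and Mmp3. Mmp9 did overlap: in KO mouse 1 it was at 5.71 CPM, within the WT range, beside a macrophage sum of 1302 CPM. KO mouse 3, with a macrophage sum of 1350 CPM, had Mmp9 at 13.2 CPM, and KO mouse 2 was highest in both. The part of macrophages in the values of Mmp12, Mmp9 and Mmp3 was not tested.

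Fibroblast and adipose progenitor markers moved in the same direction, with 9 of 9 higher, a median log2 fold change of 1.42 and a sum between 568 and 653 CPM in WT and between 1217 and 1801 CPM in KO mice. This median lies near the log2 fold changes of Mmp2, Mmp14 and Timp2. Of the 9 mature brown adipocyte markers 0 were higher and 7 were lower, with a median of -1.41 (1 higher and 5 lower with a median of -0.63 under quantile normalization, and a median of -1.0 with library size alone) and a sum between 41324 and 47171 CPM in WT and between 13654 and 17489 CPM in KO mice. Of the endothelial markers 1 of 8 was higher and 3 were lower (median -0.42, but 0.01 when scaled by library size alone). Of the mural cell markers 2 of 7 were higher and 1 was lower. Of the 9 tested skeletal muscle markers 2 were higher and 0 were lower (median 2.36), a count that rests on single mice: 9 were higher without WT mouse 2 (median 9.39) and 0 without WT mouse 1, WT mouse 3 or KO mouse 3. Under quantile normalization 9 of these muscle markers were higher, and with DESeq2 0 were. Cartilage and bone markers, relevant to Mmp13, were too low to be tested, with sums between 0.53 and 0.652 CPM in WT and between 1.06 and 2.51 CPM in KO mice, and Ibsp and Sp7 were at 0 in all mice. The part of these cell types in the values of the 10 genes was not tested.

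The genes whose profile over the 6 mice was most like each of the 10 were found by the root mean square difference of centred log2 CPM, among 10292 genes with a mean of at least 5 CPM. Mmp2 was nearest to Pdgfra, the receptor that marks fibroblasts and adipose progenitors (0.0351, beside a median of 0.826 over the candidates), followed by P2rx7 and C1s1. Pdgfra was at 10.8, 9.65 and 8.47 CPM in WT mice and at 19.8, 38.6 and 19.9 CPM in KO mice, the same order of KO mice as Mmp2. Mmp14 was nearest to Cd63 (0.0725), a tetraspanin, then to Dpt and Mnda. Timp2 was nearest to Ifi205, Lgmn, which encodes the lysosomal protease legumain, and C1ra (0.069 to 0.0902). Timp1 was nearest to Sh3pxd2b, Crip1 and Flrt2 (0.121 to 0.13).

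The other profiles were matched less closely or by genes of other kinds. Timp3 was nearest to Pspc1, Grina and Lamb2, a laminin chain (0.0939 to 0.115), and Timp4 to D8Ertd82e, Cideb, a lipid droplet protein, and Sema7a (0.187 to 0.209), which were all lower in KO BAT with adjusted p between 0.0302 and 0.0406 from edgeR. Mmp3 was nearest to C4a, a complement gene, Serpina3n and Gsta3 (0.278 to 0.302), and Mmp9 to Gpr137b-ps, Renbp and Mfge8, which encodes an opsonin (0.338 to 0.396). For Mmp12 the nearest were Plscr2, Gdf15, a stress-induced cytokine, and Akr1b7 (0.686 to 0.893), and Gdf15 was at 0.431, 0.106 and 0.261 CPM in WT mice and at 208, 261 and 215 CPM in KO mice. These values describe 6 mice in 2 genotypes, so that any gene with a similar difference between the genotypes comes out near.

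Of the 17 other Mmp genes on the list 6 were tested, 1 was higher and 1 was lower in KO BAT. Their median log2 fold change was 0.42, and -0.04 under quantile normalization. Mmp23 rose from 2.16, 5.72 and 3.78 CPM to 9.23, 16.5 and 7.76 CPM (log2 fold change 1.5, SE 0.40, edgeR adjusted p = 0.0133). Mmp24, a membrane-type enzyme, fell from 35.9, 34.2 and 36.9 CPM to 20, 21.3 and 24.1 CPM (log2 fold change -0.71, SE 0.13, edgeR adjusted p = 0.00204). Mmp19, the most abundant of the list, was between 56.1 and 66.7 CPM in WT and between 46.0 and 79.3 CPM in KO mice and did not pass the threshold. Mmp1a, Mmp1b, Mmp7 and Mmp10 had no counts in any mouse.

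The related ADAM and ADAMTS proteases, many of which Timp3 can block, had 11 of 19 tested genes higher and 0 lower, with a median log2 fold change of 1.27. Under quantile normalization, and with a minimum mean of 50 counts, 7 were higher. Adam8, a membrane protease of leukocytes, was at 1.29, 0.53 and 2.48 CPM in WT mice and at 18.8, 26.6 and 11.2 CPM in KO mice, with a log2 fold change of 3.74. Adamts14, a procollagen N-proteinase, Adamts17 and Adamts15, which cuts proteoglycans, followed with 2.69, 2.39 and 2.13. Of 8 genes of the cysteine cathepsin list 5 were higher and 1, Ctsz, was lower. Ctss, a cathepsin of antigen-presenting cells, was at 22.3, 12 and 18.6 CPM in WT mice and at 195, 510 and 164 CPM in KO mice, and Ctsk, the collagen-degrading cathepsin of osteoclasts, was at 6.25, 4.98 and 3.52 CPM and at 28.2, 149 and 22.0 CPM. Ctsc and Ctsh had log2 fold changes of 2.10 and 1.92.

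Genes that activate or control the proteases were higher in 12 and lower in 2 of 16 tested cases, with a median log2 fold change of 1.46 (8 higher under quantile normalization and 7 without KO mouse 2). Lcn2, whose human protein binds MMP9 and protects it from degradation, was at 1.19, 0.954 and 1.56 CPM in WT mice and at 52.9, 24.2 and 34.7 CPM in KO mice (log2 fold change 4.92, SE 0.35, edgeR adjusted p = 1.29e-05). Its highest value was in KO mouse 1, where Mmp9 was lowest. Cd44, a hyaluronan receptor that can hold MMP9 and MMP14 at the cell surface, had a log2 fold change of 4.05 (edgeR adjusted p = 7.89e-07). In the plasmin system, which can activate several proMMPs, the urokinase gene Plau (2.54), its receptor Plaur (3.15) and the inhibitor gene Serpine2 (3.74) were all higher. Furin, the convertase that cuts the propeptide of MMP14, was at 128, 151 and 138 CPM in WT mice and at 53.1, 72.3 and 58.0 CPM in KO mice, and its log2 fold change was -1.19 (SE 0.14, edgeR adjusted p = 0.000135). Bsg, known as an inducer of MMPs, was also lower, by 0.43 on the log2 scale, while Reck, a membrane-anchored MMP inhibitor, did not pass the threshold (1.04, edgeR adjusted p = 0.105).

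The matrix genes that these enzymes act on were higher in 13 and lower in 0 of 18 cases, with a median log2 fold change of 1.37. Col3a1, a fibrillar collagen, was at 891, 775 and 643 CPM in WT mice and at 2239, 3374 and 2058 CPM in KO mice. Fn1, which encodes fibronectin, was at 23.9, 19.1 and 12 CPM in WT mice and at 102, 98.5 and 90.9 CPM in KO mice. Spp1, the gene of osteopontin, had the largest log2 fold change of the list (8.06, SE 2.26, edgeR adjusted p = 0.0165), with 0, 0.106 and 0.391 CPM in WT mice and 3.30, 130 and 1.12 CPM in KO mice, where KO mouse 2 was far above the others. Vcan, a large proteoglycan that ADAMTS enzymes cut, had a log2 fold change of 1.94. Eln, which encodes elastin, the substrate of MMP12, was at 37.5, 40.5 and 21.8 CPM in WT mice and at 59.7, 56.4 and 63.9 CPM in KO mice (log2 fold change 0.85, SE 0.21, edgeR adjusted p = 0.00877).

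**Figure D5:**
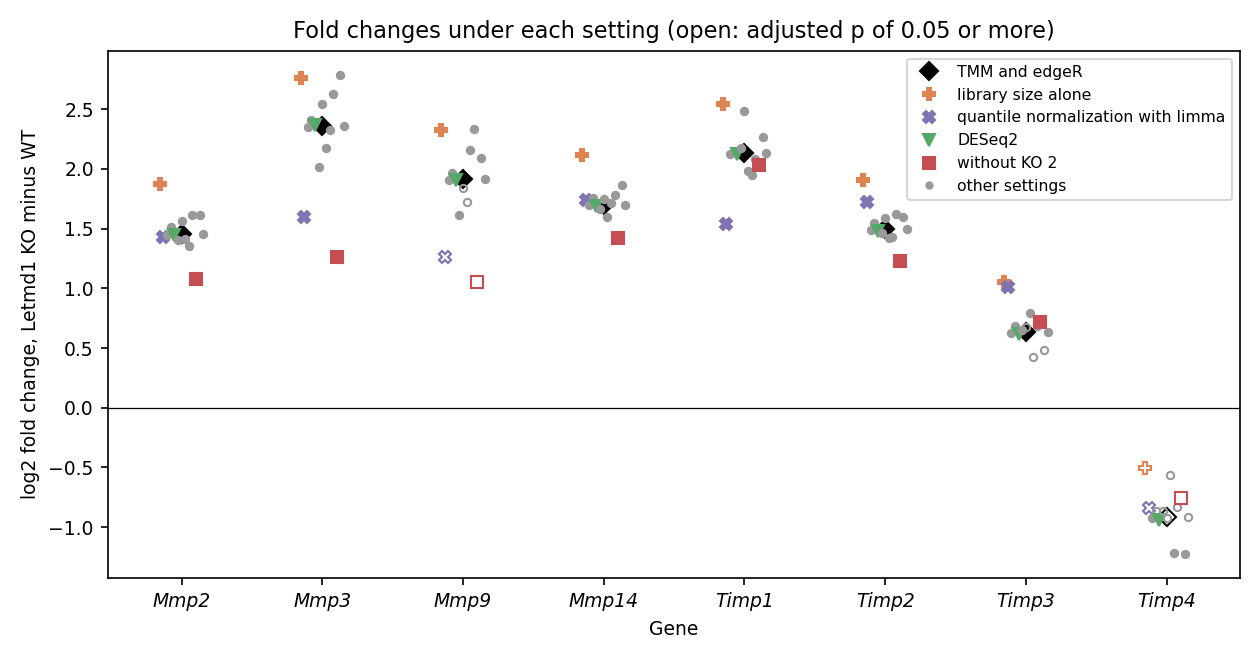
Log2 fold change (Letmd1 KO minus WT) of 8 of the 10 genes under TMM scaling with edgeR (diamonds) and under each alternative, with open symbols where the adjusted p was 0.05 or more. Mmp12, at 7.54 to 12.67, is left out for scale and Mmp13 was not tested, and the values of Mmp9, Timp3 and Timp4 change sides of the threshold while those of the other 5 do not.

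Scaling mattered because the TMM factors differed between the genotypes. When libraries were scaled by size only, the median over all genes was a log2 fold change of 0.45 in place of 0.03, and 5899 genes were higher and 1368 lower, beside 3082 and 2896 under TMM. On that scale the same 8 of the 10 genes passed as higher and Timp4 had a log2 fold change of -0.50. None of the 9 tested genes changed direction under any scaling that was run.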

How the data were processed

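RNA of BAT from 6 mice, 3 of each genotype, was sequenced by the authors as single-end QuantSeq 3′ mRNA libraries. The authors aligned the reads with Bowtie2, used Bedtools to count alignments on genes, and the deposited counts are whole numbers per mouse that were not normalized, and the submitters' processing notes name the mm10 build. Replicates of a genotype are numbered separately in the labels and were taken as separate mice, and the counts of any pair differed beyond sampling noise (11.5 to 34.0 chi-square units for each degree of freedom).

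The analysis used edgeR 4.0.16 in R 4.3.3 (TMM scaling, default filter at 10 counts in enough mice and 15 in total, quasi-likelihood test, Benjamini-Hochberg adjustment over all 12995 genes tested, threshold 0.05). Log2 CPM profiles used a prior count of 2. Ratios of pooled counts carry exact 95% intervals. Alternatives were quantile normalization with limma 3.58.1, library size alone for scaling, no filter, a mean of at least 50 counts, DESeq2 1.42.0, the replicate number as a block, leaving out Rn45s, leaving out each mouse and also asking for a 2-fold change. The steps were tested on simulated data. Positions came from GENCODE vM21 and promoter windows from RefSeq. The 10 genes and all lists were chosen with earlier results of these data known. Named are the 10 genes, up to 4 genes of each list with the largest change past the threshold, genes that overlap one of the 10, and the 3 nearest profiles. Further genes (Gpnmb and Adgre1 in the spread of the KO mice or the macrophage list, Lgals3, Lpl, S100a8, Elane, Mmp19, Plau, Furin, Bsg, Reck, Junb, Ctsz and Eln) were named after their values were seen. The values of 1 gene of the control list are not reported here.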

Additional observations from a re-analysis of the deposited data

How the results depend on the processing

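Mmp2, Mmp3, Mmp12, Mmp14 and Timp2 kept their direction and their side of the threshold in all 13 alternatives run, and Timp1 in the 12 in which it was tested (it was not tested at a mean of at least 50 counts). Mmp3 came close to the threshold under quantile normalization (log2 fold change 1.60, limma adjusted p = 0.049) and without WT mouse 2 (2.17, edgeR adjusted p = 0.0469). Of the 10 genes, 8 were called under TMM scaling with edgeR and 7 under quantile normalization, all as higher. With no filter or with DESeq2 9 were called, 8 as higher and Timp4 as lower. Between 6 and 8 were called when 1 mouse was left out. The 8 without KO mouse 2 held Mmp13 and not Mmp9. Those without WT mouse 3 and without KO mouse 3 were each 7 higher and Timp4 lower, and did not hold Timp3. Mmp9 had a log2 fold change of 1.26 under quantile normalization (limma adjusted p = 0.0951) and of 1.05 to 2.33 when 1 mouse was left out. Timp3 ranged from 0.43 to 0.79 and Timp4 from -1.22 to -0.56 when 1 mouse was left out, and Timp4 was at -0.92 with no filter and at -0.94 with DESeq2, past the threshold in both. The cause of these changes was not tested. Of all genes, 5978 passed the threshold, between 4842 and 5868 when 1 mouse was left out, and 3048 when a 2-fold change was also required. Of the 72 tested genes of the 6 lists of related proteases, controls and substrates, 50 passed, and between 42 and 49 when 1 mouse was left out. Same-numbered mice of the genotypes did not deviate together (correlations of 0.07, -0.11 and -0.09), and WT mouse 2 and KO mouse 3 had a correlation of 0.19. Such correlations cannot show whether mice shared a litter or a day of handling, so pairing is not settled, and the main fit treated the mice as unpaired. With the replicate block, 5599 genes and the same count of 8 among the 10 passed, and Mmp9 and Timp3 remained past the threshold (log2 fold changes 1.61 and 0.65). A count of 3 in 1 mouse corresponds to up to 0.397 CPM, which limits Mmp13 in all mice and Mmp12 in WT mice.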
